A study of Homo sapiens with 42 samples.

Results

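N6-methyladenosine (m6A) is adenosine in messenger RNA that carries an added methyl group. It is written by a complex in which METTL3 is the catalytic subunit, METTL14 the RNA-binding partner and WTAP an adaptor, and it is read by proteins that change the stability and translation of the transcript. The mark is known to gather in long internal exons and around stop codons, so a long transcript can carry many separate methylated stretches. The genes described here are those with 8 or more m6A peaks in the control list of HepG2, a human hepatocellular carcinoma cell line. They numbered 216 of the 14570 genes with a control peak (1.48%), and they held 2062 of the 33672 control peaks (6.12%). The genes were chosen by their number of control peaks, so that number is a description and supports nothing else.

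In m6A-seq, an anti-m6A antibody captures RNA fragments (IP), and these are read next to fragments from before the capture (input). All cells were HepG2 infected with lentivirus carrying a short hairpin RNA (shRNA) and kept under puromycin. The 7 conditions were shMETTL3, shMETTL14, shWTAP, shSETD2#1, shSETD2#2, a non-specific control shRNA made for shSETD2#2 (called the second control), and the non-specific control shRNA of the other 4 knockdowns (called the control). SETD2 is a histone H3 methyltransferase that acts on transcribed genes. Each condition had 3 input and 3 IP libraries, which the authors' peak caller joined into 1 list, so no value below has a replicate error and no test between conditions could be made. The SETD2 #2 and second control lists form a set of their own, and what differs between that set and the other one cannot be told apart from what differs between the 2 controls. The remaining level of each targeted protein and the number of reads behind each list were not analysed here.

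The gene identifiers in the lists are not paired with names in the sources used here, and 0 of the 216 matched a symbol, so genes are given by chromosome and by the hg19 interval from the first to the last control peak. For the same reason the roles of single genes and the liver markers of HepG2 were not analysed here. The peak sequences are not shown, since no genome of this build was used.

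Genes became rarer with each added peak up to 13 peaks, which 4 genes had, while 5 genes had 14. In the control list 5974 genes had 1 peak, 3795 had 2, 190 had 7, 95 had 8, 48 had 9 and 73 had 10 or more. The highest count was 18, reached by 4 genes. There was no step at the limit of 8. The 95 genes with 8 control peaks had a median of 7 peaks in the METTL3 list and 6 in the second control list, and the 190 genes with 7 had medians of 6 and 5.

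**Figure D1:**
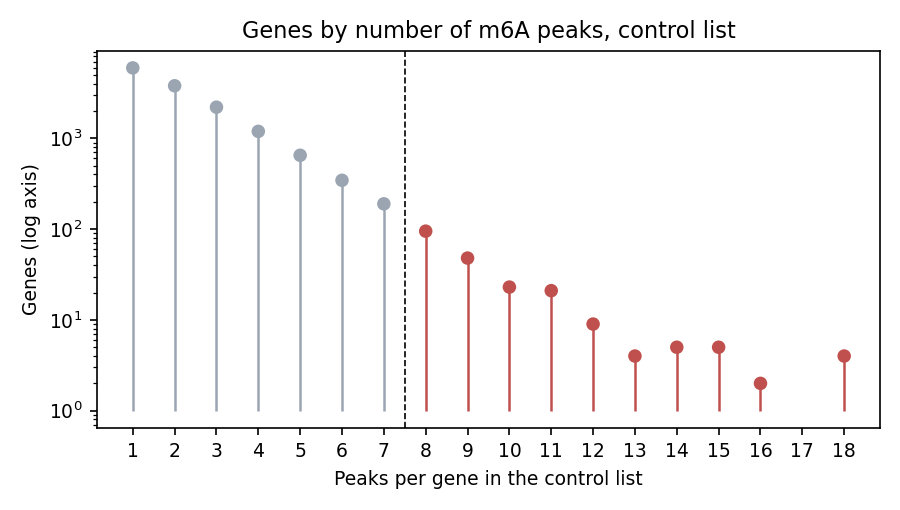
Number of genes (log axis) against the number of peaks per gene in the control list. The dashed line marks the limit, with 95 genes at 8 peaks just inside it and 190 genes at 7 just outside.

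The genes were spread over the autosomes but not evenly. Chromosome 19 held 25 of them, chromosome 17 held 22 and chromosome 16 held 21, while chromosome 22 had the highest share, 14 of its 424 genes with a control peak (3.3%). Chromosome X held 0 of 404 and chromosome 13 held 1 of 215. The peaks of a gene covered a median interval of 50.7 kb, from 3.98 to 632 kb, and neighbouring peaks of a gene were separated by a median of 658 bases of genome, introns included. Of these gaps, 20.2% were shorter than 200 bases and 19.2% longer than 5000. Close and distant neighbours were thus about equally frequent. Summed over a gene, the peaks covered a median of 3170 bases of exon, against 570 bases over all genes with a control peak. The genes were chosen for many control peaks, so a larger sum follows from that choice and nothing is read from it.

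Having many peaks did not go with higher fold enrichment. Fold enrichment, the authors' own ratio of IP over input per peak, had a median of 5.65 in the control peaks of these genes, against 6.86 in all other control peaks. Their median width was 270 bases, against 269, and their median log10 p was -11.5, against -11.9. By p-value the 6 other lists went the other way, with a lower median log10 p in these genes than in others. It was -14.2 against -12.8 in METTL3, -13.4 against -11.1 in METTL14 and -15.6 against -12.5 in WTAP. In SETD2 #1 it was -11.9 against -11.3, in SETD2 #2 -10.4 against -8.79 and in the second control -12.5 against -10.7. A single block, meaning a peak within 1 exon, was found for 57.7% of these peaks and for 61.4% of the others. Peaks of the same gene differed widely: the highest fold enrichment of a gene was a median of 11.4 times its lowest. The label "heavily methylated" thus fits the number of peaks and not their enrichment.

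The strongest single peaks were held by every list. The highest fold enrichment, 689-fold with a log10 p of -1340, belonged to a minus-strand peak of chromosome 17 (80211504 to 80223293), in 3 blocks of 1618 bases in all. Next came a peak of 17 blocks at 50760737 to 50788100 of chromosome 19 (plus strand, 243-fold) and a peak of 5 blocks on chromosome 19 from 1189630 to 1218416 (plus strand, 201-fold). Among the peaks whose p-value is listed as 0, the most enriched were on chromosome 16, a single block of 1050 bases from 72991930 to 72992979 (minus strand, 110-fold) and one of 539 bases from 2285205 to 2285743 (plus strand, 98.4-fold). Another single block, of 5370 bases, was also on chromosome 16 (89345483 to 89350852, minus strand, 74.8-fold). All 6 of these peaks overlapped a peak in each of the other lists.

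The 5'-most peaks had the highest median enrichment, although in most genes another peak was the most enriched one. In the METTL3 list the 5'-most peaks of these genes had a median fold enrichment of 11.1, the peaks between 6.27 and the 3'-most peaks 5.69. In the METTL14 list the 3 medians were 10.2, 6.3 and 5.39, and in the WTAP list 12.7, 6.01 and 5.24. The 5'-most peaks were thus the most enriched in these lists. The SETD2 #1 list gave 7.14, 4.58 and 5.26, the SETD2 #2 list 4.4, 3.41 and 4.05, the second control 7.46, 3.53 and 3.95, and the control 12.9, 5.29 and 5.29. The order of the 5'-most peaks above the others held in all 7 lists, and the gap was narrowest in the SETD2 #2 list. Other genes with at least 3 peaks had the same order in the control list, with 10.7, 5.31 and 5.21. Within a gene, the 5'-most peak was the most enriched in 25.2% of these genes in METTL3, 18.7% in METTL14, 28.3% in WTAP, 19.6% in SETD2 #1, 28.5% in SETD2 #2 and 42.4% in the second control, against 25.9% in the control. In other genes with at least 3 peaks it was so in 47.1% in the control list, but there 25.4% of the peaks are 5'-most, beside 10.5% in the 216 genes. By p-value the order was the other way: in the control list the median log10 p was -9.21 for the 5'-most, -11.5 for the peaks between and -14.9 for the 3'-most peaks.

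**Figure D2:**
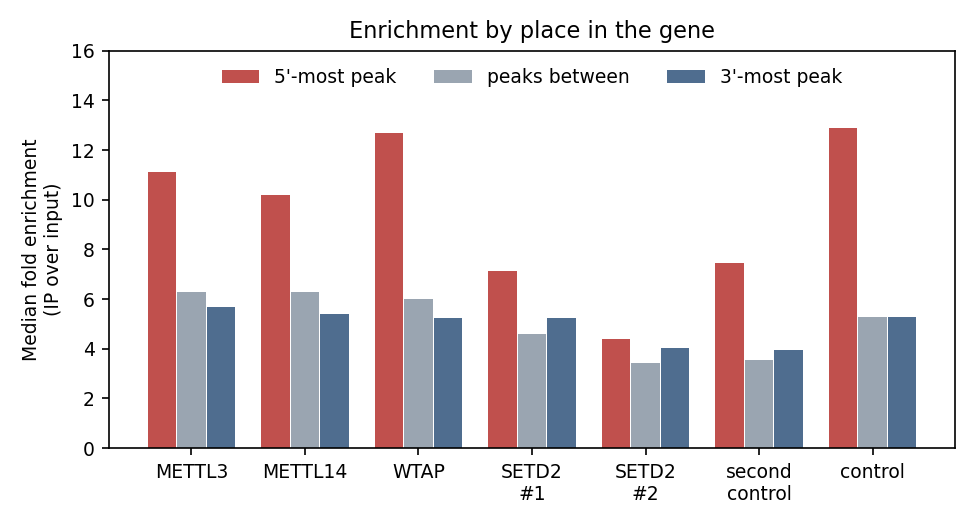
Median fold enrichment (IP over input, linear axis from 0) of the 5'-most, intermediate and 3'-most peaks of the genes, for those with at least 3 peaks in the list shown. The 5'-most peaks had the highest median in all 7 lists, from 4.4 in the SETD2 #2 list to 12.9 in the control list.

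The next question was how many peaks each gene had in the other lists. The 216 genes had 1751 peaks in the METTL3 list (84.9% of their control number), 1683 in the METTL14 list (81.6%), 1719 in the WTAP list (83.4%) and 1630 in the SETD2 #1 list (79%), against 2062 in the control. In the other set they had 1442 peaks in the SETD2 #2 list (69.9%) and 1539 in the second control (74.6%). The control thus held more peaks of these genes than any other list, and the second control, which carried no shRNA against a writer or SETD2, held fewer than each of the 4 knockdowns of the first set. Peaks of the remaining genes made up 90.5, 85.9, 87.5 and 85.5% of their control number in the METTL3, METTL14, WTAP and SETD2 #1 lists, 88% in the SETD2 #2 list and 94% in the second control. Genes chosen for a high count in 1 list tend to have lower counts in any other list by that choice alone, so a value under 100% is no sign of loss.

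The median gene had 8 peaks in the METTL3 list, 7 in METTL14, 7.5 in WTAP, 7 in SETD2 #1, 6 in SETD2 #2 and 7 in the second control, against 9 in the control. A count of 8 or more was again found for 113 genes in the METTL3 list, 105 in METTL14, 108 in WTAP, 101 in SETD2 #1, 77 in SETD2 #2 and 88 in the second control. No more than 50% of the control number was counted for 15, 28, 24 and 30 genes in the METTL3, METTL14, WTAP and SETD2 #1 lists, for 69 in SETD2 #2 and for 58 in the second control. In all 7 lists, 35 genes had 8 or more peaks, and 36 genes had fewer than 8 in every list but the control. Like shares over all genes with a control peak were not computed. The control count chose the genes, so nothing is read from the numbers in this paragraph.

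**Figure D3:**
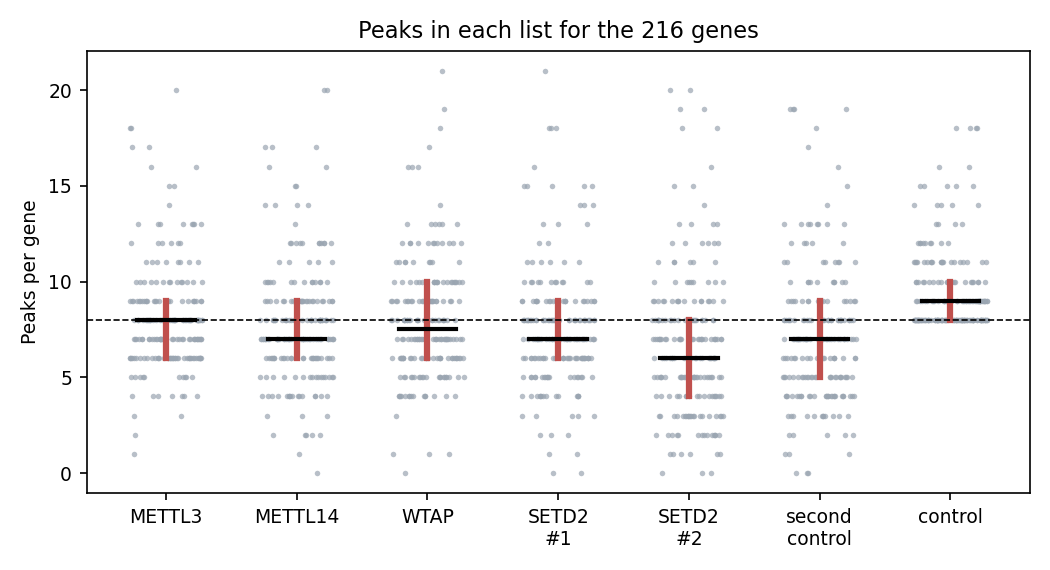
Peaks per gene for the 216 genes in each list. Points are genes, black bars are medians, red bars run from the lower to the upper quartile, and the dashed line marks 8 peaks. The median is 6 to 8 in the other lists, against 9 in the control list, which chose the genes.

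Fewer peaks than in the control were counted for 148 of the 216 genes in the METTL3 list (68.5%, against 35.7% of all genes with a control peak). The numbers were 156 for METTL14 (72.2%, against 42.9%), 150 for WTAP (69.4%, against 42.4%) and 166 for SETD2 #1 (76.9%, against 39.9%). For SETD2 #2 there were 176 (81.5%, against 42.7%) and for the second control 161 (74.5%, against 36.6%). The shares over all genes are no like-for-like background, since a gene with 1 peak has less room to lose some and was not chosen for its count. More peaks than in the control were counted for 30 genes in METTL3 (13.9%, against 14.6% of all genes), 33 in METTL14 (15.3%, against 15.5%), 37 in WTAP (17.1%, against 15.0%) and 22 in SETD2 #1 (10.2%, against 13.4%). In SETD2 #2 there were 23 (10.6%, against 19.4%) and in the second control 28 (13%, against 20.8%). Since the control count chose the genes, nothing is read from these shares.

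In 2 comparisons neither list chose the genes, although the genes were still picked for a high count in a control list. The first is SETD2 #2 against its own control. In the 216 genes the SETD2 #2 list held 1442 peaks, against 1539 in the second control, which is 93.7%, beside 93.6% in the remaining genes. Of these genes, 105 had fewer peaks in the SETD2 #2 list (48.6%, against 27.6% of all genes with a control peak), 58 had the same number and 53 had more (24.5%, against 17.7%). A gene with few or no peaks in these 2 lists has less room to differ, so the shares over all such genes are no like-for-like background. Of the second control peaks in these genes, 17.3% (95% interval 15.4 to 19.3%) had no overlapping peak in the SETD2 #2 list, against 20.6% (20.2 to 21.1%) in other genes. The share absent was thus lower in these genes than in others. Their second control peaks also had better p-values, with a median log10 p of -12.5, against -10.7 in other genes. The part of this in the difference was not tested. Intervals here and below are exact (Clopper-Pearson) and hold counting error alone; peaks of 1 gene are not independent, so they are too narrow.

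The second comparison takes the 187 genes with 8 or more peaks in the second control list, of which 88 are also among the 216 (40.7% of the 216 and 47.1% of the 187). In these 187 genes the METTL3 list held 1402 peaks, METTL14 1363, WTAP 1378 and SETD2 #1 1433, against 1485 in the control. The ratios to the control, 94.4, 91.8, 92.8 and 96.5%, lay above the 90.1, 85.7, 87.3 and 85.1% for whole lists. Chosen this way, 92, 94, 93 and 85 genes had fewer peaks than in the control (49.2, 50.3, 49.7 and 45.5%), against 35.7, 42.9, 42.4 and 39.9% of all genes with a control peak. More peaks were counted for 52, 56, 59 and 56 of them (27.8, 29.9, 31.6 and 29.9%), against 14.6, 15.5, 15.0 and 13.4% of all such genes. Both shares were above those of all genes, in which a gene with 1 peak has less room to differ. Counted in bases, the ratios were lower, 86.5, 80.8, 81.1 and 82.7%, beside 86, 78.7, 80.4 and 77.3% for whole lists. In peak number these genes were closer to their control than the whole lists were, and in bases the ratios were nearer to those of the whole lists in all 4.

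The following shares take the same control peaks whose number chose the genes, so members and other genes are set side by side as a description, and nothing is read from their difference. Peak by peak, 20.6% of the 2062 control peaks (95% interval 18.8 to 22.4%) had no overlapping peak on the same strand in the METTL3 list, against 22.9% (22.5 to 23.4%) of peaks in other genes and 22.8% of all control peaks. From the METTL14 list 26.2% (24.3 to 28.2%) were absent, against 30.1% (29.6 to 30.6%) in other genes and 29.8% of all. From the WTAP list 23.6% (21.8 to 25.5%) were absent, against 29.1% (28.6 to 29.6%) and 28.8%. In these 3 lists the member share was the lower one, but for METTL3 it was the higher one, 7.96% against 7.39%, among peaks with an FDR of at most 1e-05 in the 55 genes with 8 or more of them. It was also the higher one for METTL3 when 50% of each peak had to overlap, 35.7% against 35%. From the SETD2 #1 list 27.9% (26 to 29.9%) were absent, against 27.0% (26.5 to 27.4%) in other genes and 27.0% of all.

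In the second set the member share was the higher one. From the SETD2 #2 list 40.6% (38.5 to 42.8%) of these peaks were absent, against 34% (33.4 to 34.5%) in other genes and 34.4% of all. From the second control 36.7% (34.6 to 38.8%) were absent, against 28% (27.5 to 28.5%) and 28.6%. This order was not seen in the authors' shorter lists, limited to p of 1e-05 or less and 2-fold enrichment or more. There 61 genes had 8 or more peaks, and of their peaks 37.1% were absent from SETD2 #2, against 37.3% in other genes, and 29.2% from the second control, against 29.6%.

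**Figure D4:**
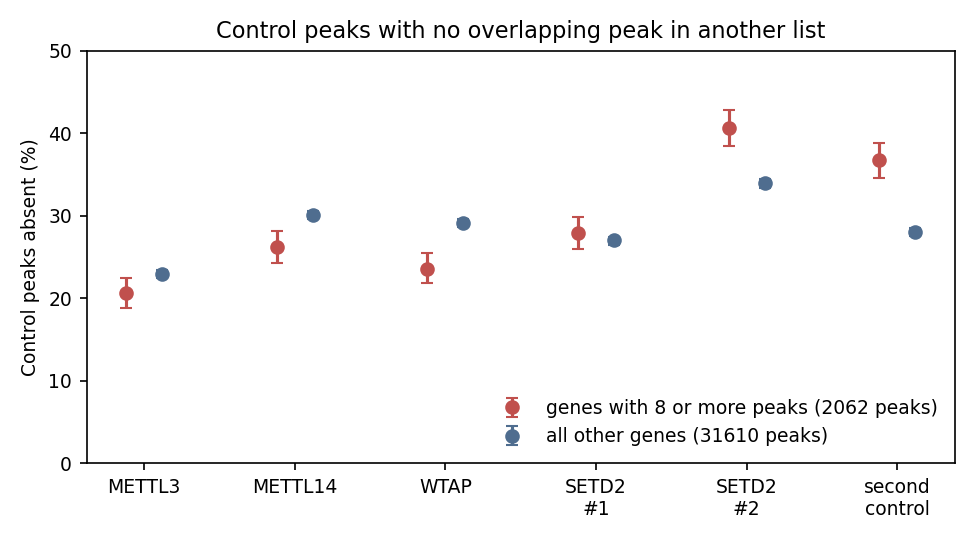
Share of control peaks without an overlapping peak in each other list, for the 216 genes (2062 peaks, red) and all other genes (31610 peaks, blue). Bars are exact 95% intervals of counting error. Red lies below blue for METTL3, METTL14 and WTAP and above it for SETD2 #2 and the second control.

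Weak peaks made up most of what was missing. Among the 1019 peaks of these genes whose p reached the median of all control peaks, the absent share was 2.36% in METTL3, 6.67% in METTL14, 6.08% in WTAP, 3.34% in SETD2 #1, 14.8% in SETD2 #2 and 12.1% in the second control. In other genes the shares were 2.43, 7.98, 7.49 and 3.23%, and 9.52 and 6.97%. Among the 1043 weaker peaks, 38.4, 45.3, 40.7 and 52% were absent from the 4 lists of the first set, against 43.6, 52.3, 50.9 and 50.9% in other genes. From SETD2 #2 and the second control 65.9 and 60.8% of the weaker peaks were absent, against 58.6 and 49.2%. The 5 classes of the control list by p-value held nearly equal parts of these peaks, from 19.2 to 20.3%. All 6 other lists together held 893 of the peaks (43.3%, interval 41.2 to 45.5%), against 45.9% (45.4 to 46.5%) in other genes, and 145 peaks (7.03%) were in none of them, against 6.84%.

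Absence was also set out by where a peak lay in its gene. The 5'-most, intermediate and 3'-most peaks were absent from the METTL3 list for 22.2, 20.7 and 17.6%, from METTL14 for 31.5, 25.6 and 25.5% and from WTAP for 23.6% each. For SETD2 #1 the shares were 34.3% (interval 28 to 41%), 27.2 and 27.3%, for SETD2 #2 40.7, 41.2 and 36.1%, and for the second control 28.7% (22.8 to 35.2%), 38.2% (35.8 to 40.6%) and 33.8%. The 5'-most peak was the least often missing in the second control alone. Like shares in other genes were not computed and the intervals are too narrow, so nothing is read from these differences.

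Peaks were also cut and joined. Of the 2062 peaks, 158 overlapped at least 2 peaks of the METTL3 list; in METTL14 it was 157, in WTAP 159, in SETD2 #1 162, in SETD2 #2 155 and in the second control 172, at most 5 pieces each. These are 7.52 to 8.34% of the peaks, beside 11.1 to 12.3% in other genes. In the other direction 92, 78, 89 and 48 peaks of the METTL3, METTL14, WTAP and SETD2 #1 lists, 53 of SETD2 #2 and 63 of the second control each covered at least 2 of the control peaks. A higher count is therefore not always more methylated sequence. Of the genes with more peaks than in the control, 15 of 30 (METTL3), 18 of 33 (METTL14) and 20 of 37 (WTAP) had fewer bases in peaks. So had 17 of 22 (SETD2 #1), 13 of 23 (SETD2 #2) and 20 of 28 (second control). Over all 216 genes, fewer bases than in the control were counted for 159, 165, 161, 206, 195 and 197 in the same order. Having fewer bases was thus not particular to the genes with more peaks. In total the peaks of these genes covered 689 kb in METTL3, 642 kb in METTL14, 659 kb in WTAP, 599 kb in SETD2 #1, 501 kb in SETD2 #2 and 535 kb in the second control, against 788 kb in the control. These are 87.4, 81.4, 83.6, 76, 63.6 and 67.8% of the control, beside 86, 78.7, 80.4, 77.3, 69.7 and 75.7% for whole lists. The control chose the genes, so nothing is read from the difference.

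Other genes reached 8 peaks only outside the control. In the METTL14 and WTAP lists 233 genes each had 8 or more peaks, more than the 216 of the longer control list, with 214 in METTL3, 153 in SETD2 #1, 146 in SETD2 #2 and 187 in the second control. Of the 233 in METTL14, 128 had fewer than 8 in the control, and of those in WTAP 125. The 128 genes had a median of 6 control peaks, 40 of them had 7, and 46 had fewer bases in peaks in METTL14 than in the control. The lists differed in this. Fewer bases were counted for 45 of 101 such genes in METTL3, 33 of 125 in WTAP and 44 of 52 in SETD2 #1. In SETD2 #2 it was 41 of 69 and in the second control 75 of 99. Peaks with no control peak beneath them are called new here, and in genes chosen for many control peaks their share is low partly by that choice. In the 216 genes 5.94% of their METTL3 peaks, 7.49% of METTL14, 7.56% of WTAP and 4.11% of SETD2 #1 were new, beside 10.8, 13, 13.9 and 8.31% in other genes. For SETD2 #2 and the second control the shares were 8.95 and 8.45%, beside 17.2 and 16%.

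Of the 4 genes with 18 control peaks, the one with the most bases in them was a minus-strand gene of chromosome 11 (62284307 to 62323677). It had 20 peaks in METTL3, 20 in METTL14, 21 in WTAP, 21 in SETD2 #1, 13 in SETD2 #2 and 13 in the second control, against 18 in the control. The first set thus held more and the second set fewer pieces, although the second set covered more sequence: 15489 bases in SETD2 #2 and 15459 in the second control, against 12976 in the control, while METTL3 had 7158, METTL14 8897, WTAP 7159 and SETD2 #1 11598. All 18 control peaks had an overlapping peak in SETD2 #2 and in the second control, so the lower count there came with no missing peak, while 14, 15, 13 and 17 of them had one in METTL3, METTL14, WTAP and SETD2 #1.

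The 3 other genes differed from one another. On chromosome 4 from 187509536 to 187647876 (minus strand) there were 17 peaks in METTL3, 15 in METTL14, 12 in WTAP, 18 in SETD2 #1, 18 in SETD2 #2 and 19 in the second control, so METTL14 and WTAP held the fewest. On chromosome 17 from 78252607 to 78371956 (plus strand) the same lists held 17, 20, 19, 13, 15 and 13. On chromosome 1 from 148251597 to 148325191 (minus strand) they held 18, 17, 17, 18, 19 and 19, and a second gene on chromosome 1 from 144162091 to 144224061 (plus strand), with 16 control peaks, held 16, 16, 16, 16, 16 and 17. Both genes on chromosome 1 had counts within 1 peak of their control count in all lists, and the fold enrichment of their control peaks ran from 3.51 to 7.22 in the first and from 2.98 to 5.65 in the second. A gene on chromosome 3 from 49679734 to 49708108 (plus strand, 15 control peaks) had 15, 17, 16, 15, 13 and 13, with a median fold enrichment of 18.9 in the control. Of its 15 control peaks 12, 11, 12, 10, 9 and 8 had an overlapping peak in these lists, so a like count did not mean the same peaks. On chromosome 17 from 75277523 to 75496379 (plus strand) there were 13, 14, 13, 13, 12 and 12, against 15, and on chromosome 11 from 6519073 to 6593052 (plus strand) 8, 8, 9, 9, 6 and 4, against 15. The last gene was thus lower in every list than in the control, by at least 6 peaks.

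**Figure D5:**
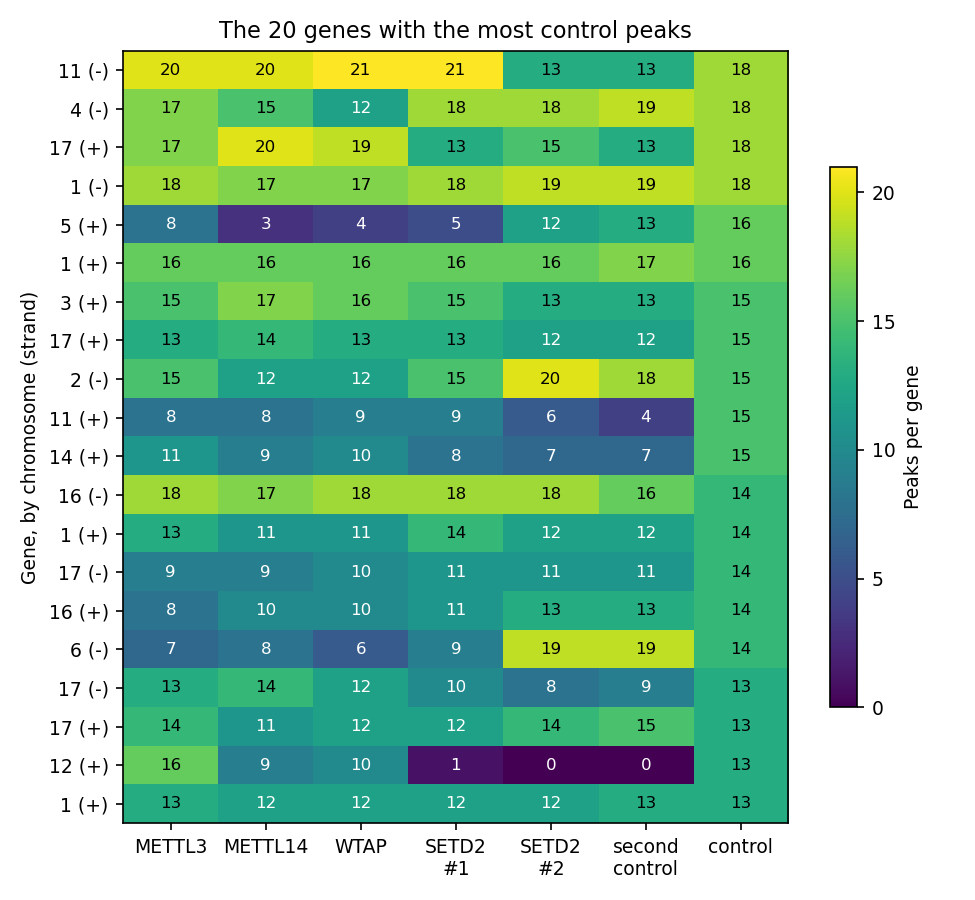
Peaks per gene in each list for the 20 genes with the most control peaks, labelled by chromosome and strand. The gene on chromosome 5 has 3 peaks in METTL14 and the gene on chromosome 12 has 0 in SETD2 #2 and the second control, against 16 and 13 in the control, and the gene on chromosome 1 (plus strand) with 16 control peaks has 16 or 17 in all lists.

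The largest shortfall in METTL14 and in WTAP was in ENSG00000038427.15, on chromosome 5 from 82767284 to 82877103 (plus strand). It had 8 peaks in METTL3, 3 in METTL14, 4 in WTAP, 5 in SETD2 #1, 12 in SETD2 #2 and 13 in the second control, against 16 in the control. All 4 knockdowns of the first set lay below both members of the second set. Its bases in peaks were 1773, 422, 602 and 842 in the first set, 2917 in SETD2 #2 and 3637 in the second control, against 4209 in the control. Several of its peaks were well supported: one from 82836940 to 82837239 (5.52-fold, log10 p -136) was absent from METTL14 and WTAP and present in the other 4 lists, and one from 82834393 to 82834633 (3.62-fold, log10 p -44.4) was absent from METTL3, METTL14, WTAP and SETD2 #1 and present in both lists of the second set.

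2 further genes were low in METTL14 and WTAP. On chromosome 11 from 118342945 to 118396199 (plus strand) there were 7 peaks in METTL3, 2 in METTL14, 3 in WTAP, 9 in SETD2 #1, 10 in SETD2 #2 and 8 in the second control, against 11 in the control. On chromosome 1 from 14075878 to 14113377 (plus strand) the numbers were 4, 0, 1, 4, 7 and 4, against 8. A gene on chromosome 2 from 21224331 to 21266945 (minus strand) had 15 peaks in METTL3, 12 in METTL14, 12 in WTAP, 15 in SETD2 #1, 20 in SETD2 #2 and 18 in the second control, against 15 in the control. It held the best supported peaks missing from METTL14 and WTAP, from 21233625 to 21233834 (2.04-fold, log10 p -337) and from 21229461 to 21229671 (1.65-fold, log10 p -165), which the other 4 lists held. Both were strong by p-value and weak by fold enrichment, and the 15 control peaks of this gene had the lowest median log10 p of all members, -654, beside a median fold enrichment of 2.75.

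Some genes had few or no peaks in 1 set or list. ENSG00000205592.13, on chromosome 12 from 40876662 to 40884911 (plus strand), had 16 peaks in METTL3, 9 in METTL14, 10 in WTAP, 1 in SETD2 #1, 0 in SETD2 #2 and 0 in the second control, against 13 in the control. A gene on chromosome 1 from 152276121 to 152286557 (minus strand) had 1, 4, 13, 0, 8 and 0, against 9, and one on chromosome 14 from 23990334 to 24025401 (minus strand) had 6, 10, 6, 0, 3 and 4, against 11. On chromosome 22 from 46758590 to 46932257 (minus strand) there were 2, 4, 7, 1, 2 and 4, against 11. The control peaks of these 4 genes had high fold enrichment with weak p-values, with median fold enrichments of 15.4, 15.4, 13.7 and 13.7 and median log10 p of -3.87, -4.12, -3.69 and -3.38. Transcript level and read depth were not measured here, and their part in these numbers was not tested. A gene on chromosome 15 from 84953253 to 84960541 (minus strand) had 9, 6, 4, 4, 0 and 0, against 8, and 6 of its control peaks overlapped a peak of another identifier. On chromosome 21 from 44866769 to 44873424 (plus strand) there were 6, 6, 8, 9, 0 and 3, against 8, and 7 peaks overlapped in this way. The gene without a WTAP peak was on chromosome 5 from 123980050 to 124080681 (minus strand), with 6, 2, 0, 5, 7 and 2, against 8. In all, no peak was listed for 0 genes in METTL3, 1 in METTL14, 1 in WTAP, 2 in SETD2 #1, 3 in SETD2 #2 and 3 in the second control.

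Of the genes above their control count, ENSG00000140836.14 lay on chromosome 16 from 72820950 to 73092938 (minus strand). It had 18 peaks in METTL3, 17 in METTL14, 18 in WTAP, 18 in SETD2 #1, 18 in SETD2 #2 and 16 in the second control, against 14 in the control. The control count was the lowest of the 7, and the bases in peaks were the highest there, 8675 against 5981 to 7750 in the others. It was 1 of 4 genes with at least the control count in all 6 lists. The others were the gene on chromosome 1 from 144162091 to 144224061, and genes on chromosome 19 from 38519779 to 38698353 (plus strand) and on chromosome 16 from 27472114 to 27561234 (minus strand), each with 8 control peaks and 8 to 10 elsewhere.

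Further genes stood above the control in writer lists. On chromosome 22 from 50883759 to 50913243 (minus strand) the 6 counts were 12, 11, 12, 9, 3 and 5, against 8, and on chromosome 17 from 80186273 to 80197803 (plus strand) 11, 15, 13, 6, 3 and 4, against 11. On chromosome 16 from 12070624 to 12666738 (plus strand) they were 8, 10, 13, 7, 8 and 9, against 8, and on chromosome 12 from 49415006 to 49445955 (minus strand) 13, 12, 16, 15, 11 and 11, against 12. In bases the METTL3, METTL14 and WTAP lists were above the control for the genes on chromosomes 22 and 17. On chromosome 16 they held 1565, 1836 and 2679 bases, against 2645, and on chromosome 12 6819, 6249 and 6613, against 8675.

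Other genes had higher peak counts in the second set. ENSG00000127603.23, on chromosome 1 from 39569335 to 39951469 (plus strand), had 11 peaks in METTL3, 12 in METTL14, 12 in WTAP, 15 in SETD2 #1, 20 in SETD2 #2 and 19 in the second control, against 12 in the control. On chromosome 6 from 56323745 to 56558081 (minus strand) there were 7, 8, 6, 9, 19 and 19, against 14. A gene on chromosome 21 from 47744036 to 47856019 (plus strand) had 7, 7, 8, 11, 12 and 14, against 9. In bases the picture differed between these genes. The gene on chromosome 21 had its fewest bases in the second set, 4447 in SETD2 #2 and 4870 in the second control, against 6602 in the control. For the gene on chromosome 1 the bases were 7188 and 7397, against 7299, and for the one on chromosome 6 4755 and 5624, against 4478. In the genes on chromosomes 1 and 6 the counts of SETD2 #2 and the second control differed by at most 1 peak. There they stood above the counts of every list of the first set. The reverse held on chromosome 7 from 1509913 to 1544003 (minus strand), with 11, 12, 10 and 10 peaks in the first set, 2 in SETD2 #2 and 4 in the second control, against 12 in the control. So it did on chromosome 11 from 494902 to 507300 (minus strand), with 12, 16, 11 and 11, 2 and 3, against 9. The best supported peaks absent from SETD2 #2 were also absent from its own control and present in all lists of the first set. The first lay on chromosome 17 from 75496139 to 75496379 (plus strand, 3.93-fold, log10 p -668). The others were at 44478262 to 44479547 of chromosome 21 (minus strand, 9.85-fold, log10 p -318) and at 32131145 to 32131809 of chromosome 1 (minus strand, 60.3-fold, log10 p -245).

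For SETD2 #1 the best supported absent peak was at 80207280 to 80207490 of chromosome 17 (minus strand, 8.95-fold, log10 p -103). It was also absent from SETD2 #2 and present in both controls and in the 3 writer lists. The gene it belongs to holds the 689-fold peak described above and had 10 control peaks. The next by p-value differed, on chromosome 5 from 82837569 to 82838048 (plus strand, 3.8-fold, log10 p -56.4). SETD2 #2, METTL3 and the second control held it, and METTL14 and WTAP lacked it. The peak after it, from 82834393 to 82834633, was also present in SETD2 #2. How many peaks were absent from both SETD2 lists alone was not computed. From the METTL3 list, a peak on chromosome 2 from 54891541 to 54891751 (plus strand, 1.5-fold, log10 p -26.1) was missing together with SETD2 #1, while the METTL14 and WTAP lists held it.

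Overlapping genes can share reads, and a gene's count is then uncertain. Of the 2062 peaks, 79 (3.83%) in 26 genes overlapped a control peak given to another identifier on the same strand, against 6.99% of peaks in other genes. On chromosome 21 from 44473570 to 44495935 this was so for 9 of the 10 peaks of a gene. Without these 79 peaks the absent shares were 20.8% in METTL3, 26.4% in METTL14, 23.8% in WTAP, 28.2% in SETD2 #1, 40.3% in SETD2 #2 and 36.6% in the second control, all inside the intervals given above.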

How the data were processed

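Peaks were called by the authors with exomePeak on replicates 1 to 3 together, per the labels. TopHat2 2.1.1, FastQC 0.11.5 and hg19 are named in the submitters' processing notes; no source used here gives the exomePeak version or gene annotation. Each deposited table holds a p-value per peak, its log10 and the log10 FDR (scores here, to minus infinity) and a linear fold enrichment ratio. Per the file headers each peak has blocks that leave out introns. The largest deposited FDR was 0.0501, and a shorter deposited list held the peaks with p at most 1e-05 and fold enrichment at least 2.

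Rows repeating another row's strand and blocks were removed (11 to 21 per list); removing only rows identical in every column gave the same counts for the 216 genes. Peaks were counted per gene identifier, and a peak counted as absent where no same-strand peak had 1 base in common with its blocks. The overlap code was tested on the control list with a random part of its peaks removed, and base by base on chromosome 21. Shifted or split peaks were not part of this test. Shares have exact Clopper-Pearson 95% intervals. Python 3.11.15, numpy 2.4.6, pandas 2.3.3 and scipy 1.17.1 were used.

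The number of reads per library, and so the precision depth gives, is unknown. The members, lists and alternatives were chosen with earlier results of these data known. Genes named are the 10 with most control peaks, the 3 with the largest difference each way in each list, the first 5 by control peaks of those without a peak in a list and those at or above the control count in all; peaks named are the 5 strongest by fold enrichment and by p, and the 3 best by p absent from each list, given in part. The genes without a SETD2 #2 peak on chromosome 21 and without a WTAP peak on chromosome 5 fell outside the rule for genes. So did the chromosome 21 gene from 44473570 to 44495935, given for its peaks that overlap another identifier. All of these were named after their values were seen. Planned functional gene groups and marker genes were not used, as identifiers matched 0 symbols.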

Additional observations from a re-analysis of the deposited data

How the results depend on the processing

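No paired analysis was possible because each deposited list joins replicates 1 to 3; leaving one out was equally impossible. With a minimum of 6 or 10 peaks, in the shorter list and at an FDR of at most 1e-05, the number of genes was 751, 73, 61 and 55. Members that reach the minimum again in METTL3, METTL14, WTAP, SETD2 #1, SETD2 #2 and the second control numbered 479, 454, 427, 425, 307 and 352 with 6 peaks, 37, 37, 41, 31, 27 and 31 with 10, and 35, 33, 34, 31, 23 and 29 in the shorter list. Chosen on the second control, 68 genes reached 8 in METTL14. In the same order, the absent shares were 35.7, 43.7, 41.8, 40.6, 58.1 and 53.8% where 50% of each peak had to overlap, 7.96, 13.9, 13.4, 10.1, 17.5 and 14.8% at the FDR limit, and 2.36, 6.67, 6.08, 3.34, 14.8 and 12.1% among peaks at or better than the median p, the last added after the data were examined. In the shorter list they were 17.7, 23.1, 37.1 and 29.2% for METTL3, SETD2 #1, SETD2 #2 and the second control, and with 6 peaks 33.7% for the second control. Fewer genes or peaks qualify under stricter limits by construction; other causes were not tested. At the FDR limit other genes lacked 7.39, 15.1, 14.4, 10.1, 17.8 and 13.4%, so METTL3 there stood above other genes and SETD2 #2 below them. Merging overlapping peaks, whole spans and leaving out peaks shared with another gene moved no value beyond its interval or 1.5 times. Read depth is unknown, so an absent weak peak may be one that was not detectable.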
